A study of Homo sapiens with 10 samples.

Results

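Mahlavu cells labelled as overexpressing the C-terminal fragment of PSPC1, PSPC1-CT131, were compared with Mahlavu cells taken to carry the same fragment with a mutated nuclear localization sequence (NLS), Mut-NLS-CT131. These were 2 of the 10 RNA-Seq libraries of the series, chosen by the labels of the samples and not by any measured value. The source label of the second names an NLS mutation of PSPC1 and not the C-terminal fragment. It is called Mut-NLS-CT131 here after the mutant fragment that the study expressed in Mahlavu. Whether the cells carried the fragment or full-length PSPC1 is not settled by that label. Mahlavu is a human hepatocellular carcinoma cell line, grown in DMEM with fetal bovine serum. PSPC1-CT131 holds the last 131 residues of PSPC1, and per the study's methods constructs were introduced by transfection. The study imaged the fragment and its mutant as fusions with EGFP, while its methods describe the NLS mutant in a plasmid with an HA tag. Which constructs the RNA-Seq cells carried is not stated there. A mock library of Mahlavu, 1 sample, is given beside most values as the background. Each condition had 1 library, so no difference below has a replicate check, no test was possible, and clone, culture and library preparation cannot be told apart from the fragment.

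PSPC1 is a paraspeckle protein of the DBHS family, whose members SFPQ and NONO pair with it through coiled coils and bind RNA. Paraspeckles are nuclear bodies built on the long non-coding RNA NEAT1. The C-terminal tail lies outside the RNA-binding part of the protein and carries the signal for import into the nucleus. In liver cancer cells, PSPC1 has been linked to TGF-β and Wnt signaling and to the kinase PTK6. The comparison of both fragments addresses how the RNA profile differs between a tail that can enter the nucleus and one in which this signal was altered.

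The coding sequence of the fragment is shown because the comparison is of the fragment with its NLS mutant. In transcript PSPC1-201 of GENCODE 29 the fragment runs from residue 393 to the last residue, and the first 300 of its 393 coding bases lie in exons 7 to 9 on the minus strand, between the ends given as chr13:19703271-19709581 on GRCh38.p12. Capitals mark the arginine codons.
PSPC1 coding stretch: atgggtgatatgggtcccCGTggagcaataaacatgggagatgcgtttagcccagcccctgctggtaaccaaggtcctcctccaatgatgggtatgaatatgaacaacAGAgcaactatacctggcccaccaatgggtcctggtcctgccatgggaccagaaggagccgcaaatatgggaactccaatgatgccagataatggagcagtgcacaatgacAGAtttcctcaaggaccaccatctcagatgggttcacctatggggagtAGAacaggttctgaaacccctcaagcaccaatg
The methods name the substitution of the mutant as R409A. In this transcript, counted from the start codon, the codon of that number is AGC, which encodes serine, and the 4 arginine codons of the printed stretch are at residues 399, 429, 466 and 482. The altered base could therefore not be placed on this transcript and was not read in the libraries, which are known here only as counts per gene.

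Reads of the fragment would be counted for PSPC1 itself (ENSG00000121390, chromosome 13). PSPC1 had 1582 reads in mock, 899 in the library labelled PSPC1-CT131 (labelled CT131 in what follows) and 632 in that labelled Mut-NLS-CT131 (labelled Mut-NLS). Both labelled libraries were thus below mock for the gene whose fragment they were to overexpress, so the directions below rest on the labels. After quantile normalization PSPC1 stood at 41.0 FPKM in mock, 30.2 in the library labelled CT131 and 19.1 in the library labelled Mut-NLS. The log2 difference of the library labelled CT131 minus the library labelled Mut-NLS was 0.63.

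Between 19085682 and 22685424 reads were counted on genes in the 3 Mahlavu libraries. Of 9 hepatocyte markers, SERPINA1 alone was above 1 FPKM in each library, and ALB, APOA1, TTR, FGB and CYP3A4 had no read in any of the 3 libraries. The 5 mesenchymal markers were all above 1 FPKM, with summed deposited FPKM of 2916 to 3086. Keratins KRT8 and KRT18 were abundant while EPCAM had 0 to 3 reads, and endothelial and erythroid markers stayed below 1 FPKM. CD14 was the one immune marker above 1 FPKM, at 7.15 to 10.2 FPKM as deposited. Among the muscle markers DES reached 1.56 FPKM as deposited in the library labelled Mut-NLS.

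Of 58302 genes, 12453 had a mean of at least 1 FPKM over both fragment libraries. Differences are log2(FPKM + 1) after quantile normalization, library labelled CT131 minus library labelled Mut-NLS, which understates the change of low genes. Before any other step, 527 genes (4.23%) had a level 2-fold or more above, and 571 (4.59%) a level 2-fold or more below, that of the library labelled Mut-NLS. On FPKM as deposited the split was 302 higher and 966 lower, with a median log2 difference of −0.13 over all genes instead of 0.01. The differences followed the GC content of the transcripts, with Spearman's rho of 0.57 across genes, which are not independent replicates. In the bin of 622 genes with the lowest GC content, at a median of 35.7%, the median log2 difference was −0.61 and 7.72% of genes were higher in the library labelled CT131. At the other end, at 66.2% GC, the median was 0.43 and 79.4% of genes were higher. Set against mock, the library labelled CT131 had rho of 0.57 with GC content and the library labelled Mut-NLS −0.10, so the slope with GC content lay mainly in the former library.

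To take GC content into account, the median difference of genes of like GC content was subtracted from each gene. This left rho at 0.01, and the numbers came to 277 higher (2.23%) and 324 lower (2.60%) of the 12440 genes with a known transcript. A gene is called higher or lower below only where it passed 2-fold both before and after this adjustment, which held for 216 genes (1.74%) and 220 genes (1.77%). These shares are the background for the calls of every list below, also for lists with 1 call or none. The numbers given for gene lists are of the genes that passed the filter, such as 57 of 77 listed KRAB zinc finger genes, 23 of 37 Wnt ligands and receptors, 22 of 37 Wnt/β-catenin targets, 22 of 30 NF-kB genes, 24 of 32 matrix proteases and inhibitors, 15 of 29 stemness genes and 11 of 21 EMT transcription factors. A gene that is low in 1 library can pass through the other, so a count of such genes is a description. Levels in FPKM, and what is said below of nearness to mock, are without GC adjustment. Whether part of the remaining differences comes from library preparation was not tested.

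**Figure D1:**
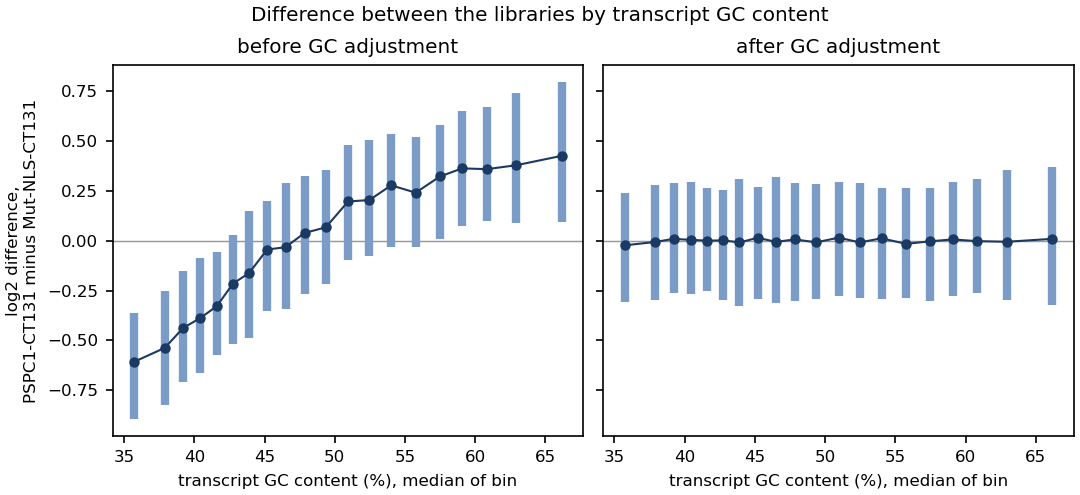
Log2 difference of the library labelled PSPC1-CT131 minus the library labelled Mut-NLS-CT131 (vertical axis) against the median transcript GC content of 20 equal bins of genes (horizontal axis, percent), before (left) and after (right) GC adjustment. Points are bin medians and bars run from the lower to the upper quartile of genes. The medians climb from −0.61 to 0.43 on the left and lie near 0 on the right.

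The largest GC-adjusted difference in favor of the library labelled CT131 among protein-coding genes with at least 100 reads was in ID3, an inhibitor of bHLH transcription factors. ID3 (chromosome 1) stood at 103 FPKM in mock, 88.9 in the library labelled CT131 and 12.5 in the library labelled Mut-NLS. Its log2 difference was 2.74 before and 2.43 after GC adjustment, and the 95% counting interval of the log2 ratio of deposited FPKM ran from 2.42 to 2.80. Such intervals cover counting error only and not the spread between cultures, since each condition had 1 library. Reads carry no molecular identifiers, so copies of the same molecule can be counted as separate reads and the intervals can be too narrow. ID3 in the library labelled CT131 was close to mock, and the low value was that of the library labelled Mut-NLS.

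The remaining 11 of the 12 highest genes had GC-adjusted log2 differences between 1.72 and 2.17. NCOA5, a nuclear receptor coactivator, had 22.3, 22.3 and 3.50 FPKM in mock, the library labelled CT131 and the library labelled Mut-NLS, in that order, which is kept below. The ID3 relative ID1 had 85.4, 80.4 and 13.2 FPKM, and SMAD6, an inhibitory SMAD, had 18.9, 13.9 and 1.64 FPKM. In these 3 genes mock and the library labelled CT131 differed little compared with the distance to the library labelled Mut-NLS. SAMD11, with 1172, 587 and 90 reads, and the F-box protein gene FBXO9, with 21.3, 19.0 and 6.52 FPKM, followed the same order of unadjusted levels. For FBXO9 the log2 difference of the library labelled CT131 minus mock was −0.16 before and 0.14 after GC adjustment. Its order against mock thus turned on adjustment. For SAMD11 that difference was −0.52 before and −0.88 after. The Wnt ligand gene WNT7B had 2.27, 9.84 and 0.999 FPKM and was highest in the library labelled CT131. So was UBB, a polyubiquitin gene, with 175, 289 and 57.8 FPKM. ADM, which encodes the vasodilator peptide adrenomedullin, had 27.0, 36.2 and 6.72 FPKM. FRMD3 had 9.45, 10.4 and 3.38 FPKM and SYT12, a synaptotagmin gene, 9.19, 14.6 and 3.07 FPKM. ANXA8 had 9.56, 37.3 and 8.56 FPKM, an uncertain value because reads can be split with its near-identical copy ANXA8L1, as those of UBB can with other polyubiquitin genes.

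At the opposite end stood HES3, a bHLH repressor gene on chromosome 1, with 0 reads in mock, 0 in the library labelled CT131 and 198 in the library labelled Mut-NLS. Against a floor of 3 reads in the library labelled CT131, and with the 198 reads taken as exact, HES3 was at least 68.5-fold lower there. DCDC2C, a gene with doublecortin domains, had 71, 17 and 354 reads. The sulfotransferase gene SULT1C2 had 203, 22 and 663 reads, and a log2 difference of −3.41 before and −3.37 after GC adjustment. These 3 genes rest on 22 reads or fewer in the library labelled CT131, and so does PSG2 below, with 16 reads there.

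CES1, a liver carboxylesterase gene on chromosome 16, was far more abundant, at 173 FPKM in mock, 97.1 in the library labelled CT131 and 459 in the library labelled Mut-NLS, with a log2 difference of −2.23 before and −2.47 after GC adjustment and a counting interval of −2.21 to −2.07. SOD2, the mitochondrial superoxide dismutase gene, had the largest absolute number of reads among these 12 genes, 13669, 6604 and 32871, and its levels were 319, 159.9 and 1001 FPKM. Both genes were lowest in the library labelled CT131 and highest in the library labelled Mut-NLS, with mock between. The apolipoprotein gene APOE had 19.2, 5.19 and 23.5 FPKM, so that mock and the library labelled Mut-NLS were alike and the library labelled CT131 was low. IGFN1 had 98.6, 5.33 and 23.7 FPKM and was highest in mock. LTF, which encodes the iron-binding protein lactoferrin, had 5.33, 3.88 and 19.9 FPKM. SIGLEC15 had 1.93, 2.25 and 15.1 FPKM and INHBE, an inhibin subunit gene, 1.55, 2.40 and 13.3 FPKM. PSG4, with 3.24, 1.37 and 10.9 FPKM, and PSG2, with 1.44, 0.824 and 9.11 FPKM, belong to the pregnancy-specific glycoprotein family, whose near-identical members can share reads.

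**Figure D2:**
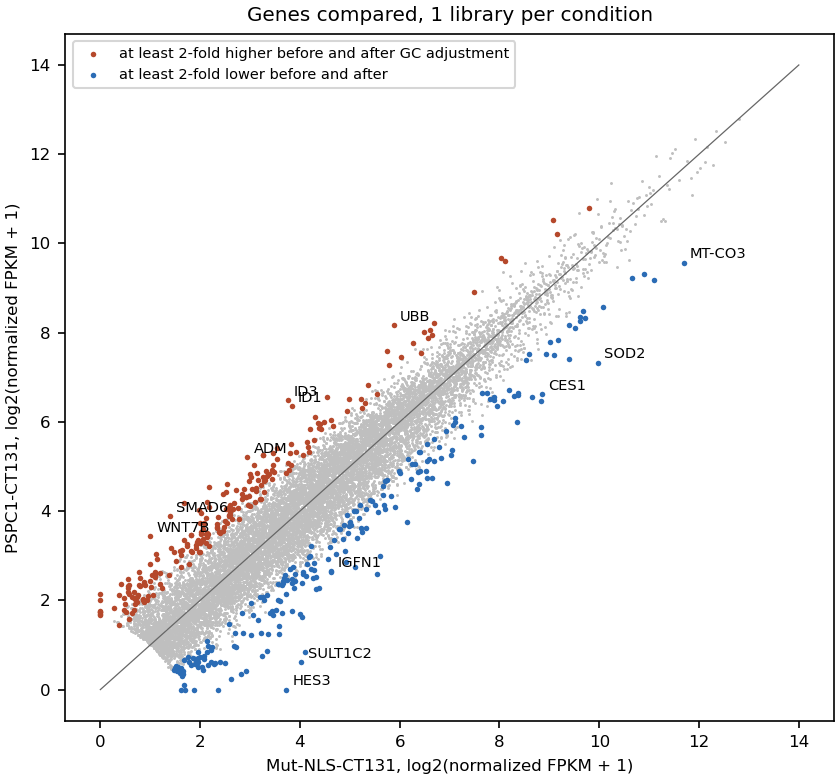
Level of every gene compared in the library labelled PSPC1-CT131 (vertical axis) against the library labelled Mut-NLS-CT131 (horizontal axis), both as log2(normalized FPKM + 1), with 1 point per gene and the line of equal levels. Red points are the genes higher, and blue points those lower, by 2-fold or more before and after GC adjustment; MT-CO3, SOD2 and CES1 lie far below the line at high levels, and ID1, ID3 and UBB above it.

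Genes of bone morphogenetic protein (BMP) signaling were taken up after ID1, ID3 and SMAD6 had been seen, so their count supports nothing beyond those genes. BMP receptors phosphorylate SMAD1, SMAD5 and SMAD9, which switch on ID genes and the inhibitory SMADs. Of 31 genes in the list, 18 passed the filter on low values, 6 of these were called higher and 0 lower, against 1.74% and 1.77% of all genes. The called genes were ID1, ID2, ID3, SMAD6, ATOH8 and BMPER. ID2 had 20.7, 15.9 and 5.81 FPKM, and ATOH8, a bHLH factor gene, had 472, 162 and 16 reads. BMPER, a secreted BMP-binding protein, had 0.429, 3.39 and 0.485 FPKM and was thus near mock in the library labelled Mut-NLS. SMAD7 had 15.4, 25.5 and 11.1 FPKM, a log2 difference of 1.13 before and 0.78 after GC adjustment.

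The upstream members differed less. The ligand gene BMP4 had 38.1, 13.1 and 8.89 FPKM, with a log2 difference of 0.51 before and 0.23 after GC adjustment. The receptor genes BMPR1A and BMPR2 had 3.34 against 2.19 FPKM and 5.41 against 5.03 FPKM in the libraries labelled CT131 and Mut-NLS. SMAD1 had 7.04 against 6.42 FPKM and SMAD5 22.0 against 30.2 FPKM, and BAMBI, a pseudoreceptor gene, had 62.6 against 51.7 FPKM. The differences of 2-fold thus lay in ID1, ID2, ID3, SMAD6, ATOH8 and BMPER, and not in the receptors or SMAD1, SMAD4 and SMAD5.

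The TGF-β and Wnt genes are of interest because the study followed autocrine TGF-β1 and Wnt3a. WNT3A had 1 read in mock and none in either fragment library, so its RNA was not detectable at this depth. TGFB1 had 460.1 FPKM in mock, 1184 in the library labelled CT131 and 732 in the library labelled Mut-NLS, a log2 difference of 0.69 before and 0.31 after GC adjustment. In the TGF-β pathway list 1 of 19 genes was called higher, SMAD6, and none lower, against 1.74% and 1.77% of all genes. The median log2 difference of this list was 0.31 after GC adjustment, against −0.00 over all genes. SMAD3 had 224, 203 and 124 FPKM, whereas SMAD2 had 7.39, 6.51 and 8.17 FPKM. LTBP4, a latent TGF-β binding protein gene, had 20.7, 55.7 and 88.0 FPKM, and TGIF1, a repressor of SMAD-driven transcription, 62.7, 57.8 and 140.0 FPKM. Among 39 TGF-β response genes 5 were called higher and 0 lower, against 1.74% and 1.77% of all genes, and the median was 0.15. These were ID1, ID2 and ID3 again, and with them TIMP3, a metalloproteinase inhibitor gene with 55.7, 90.6 and 30.7 FPKM, and the adhesion scaffold gene NEDD9 with 8.49, 10.6 and 4.18 FPKM. TAGLN, which encodes the actin-binding protein transgelin, was 2-fold lower after GC adjustment only, with 309, 19 and 58 reads.

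Of 22 Wnt/β-catenin target genes 1 was called higher, against 1.74% of all genes, the cyclin D1 gene CCND1 with 46.0, 59.2 and 24.2 FPKM. The median of this list went from 0.52 to 0.30 on GC adjustment, and the first of these was 0.24 on FPKM as deposited, 0.20 among genes of at least 5 FPKM and 0.11 with no filter on low values. The targets FOSL1, JUN and NOTUM, all past 2-fold before adjustment, had 0.88, 0.80 and 0.93 after it. CTNNB1, which encodes β-catenin, had 105, 86.9 and 108 FPKM. WNT7B was the one call among 23 Wnt ligands and receptors, again against 1.74% of all genes. The median of these genes was 0.14, and WNT9A had 1.64, 7.65 and 2.60 FPKM. MYC had 23.2, 24.6 and 31.4 FPKM, a log2 difference of −0.34 before and −0.61 after GC adjustment. The 48 MYC targets had a median of 0.02, with 1 higher and 1 lower, against 1.74% and 1.77% of all genes. These were LDHA, and the nucleolar GTPase gene GNL3 with 53.5, 28.2 and 81.8 FPKM.

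Hypoxia-inducible factors switch on genes for glucose uptake, glycolysis and blood vessel growth. Of 43 genes of this list 7 were called higher in the library labelled CT131 and 1 lower, against 1.74% and 1.77% of all genes. The median was 0.42 before and 0.20 after GC adjustment, and 31 genes were above 0 after it. SLC2A1, the main glucose transporter gene, stood at 166 FPKM in mock, 479 in the library labelled CT131 and 178 in the library labelled Mut-NLS. LDHA, which makes lactate dehydrogenase A, had 903, 1786 and 891 FPKM and PFKFB4, a regulator of glycolytic flux, 7.07, 27.5 and 9.49 FPKM. The oxygen sensor gene EGLN3 had 12.1, 32.7 and 12.6 FPKM. In these 4 genes the library labelled Mut-NLS was near mock and the library labelled CT131 stood apart.

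ADM followed another order, with mock near the library labelled CT131, and so did ANKRD37, with 6.13, 8.98 and 2.83 FPKM. ANGPTL4, a lipase inhibitor gene, had 21, 91 and 13 reads. STC1 had 4.11, 15.6 and 7.54 FPKM, a log2 difference of 0.96 before and 1.13 after GC adjustment, just under 2-fold before adjustment. VEGFA, the best known hypoxia target, had 84.0, 137 and 137 FPKM and did not differ between the fragment libraries before adjustment. The carbonic anhydrase genes parted, with 1.60, 25.7 and 11.1 FPKM for CA9 and 4.79, 22.6 and 49.5 FPKM for CA12, the gene called lower. CA9 and CA12 were both above mock in both fragment libraries.

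Promoter windows of RefSeq (250 bases before to 50 after the gene start, GRCh38.p14) were read for the 8 hypoxia genes that were at least 2-fold higher after GC adjustment, and 7 of them had a window. The letters ACGTG, the core that hypoxia-inducible factors bind, occurred on either strand in 3 of the 7 genes, ANKRD37, LDHA and ANGPTL4, against 21.4% of 35116 windows of the same length. The genes come from a list of hypoxia genes, whose other members were not read. A gene was counted if any of its windows matched, and LDHA had 2 windows. The share of all windows is therefore no matched background. Adjacent matches on both strands, as in CACGTG, overlap. The windows of ANKRD37 and LDHA are printed because these genes held the most matches, 3 and 5, with the matches in capitals.
ANKRD37, chr4:185396591-185396890, plus strand: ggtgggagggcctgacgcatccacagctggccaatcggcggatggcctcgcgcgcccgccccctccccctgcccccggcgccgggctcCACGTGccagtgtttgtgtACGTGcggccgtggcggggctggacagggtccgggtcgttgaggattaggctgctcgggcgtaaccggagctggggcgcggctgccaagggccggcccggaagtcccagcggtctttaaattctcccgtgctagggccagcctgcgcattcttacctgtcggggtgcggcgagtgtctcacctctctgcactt
LDHA, chr11:18394313-18394612, plus strand: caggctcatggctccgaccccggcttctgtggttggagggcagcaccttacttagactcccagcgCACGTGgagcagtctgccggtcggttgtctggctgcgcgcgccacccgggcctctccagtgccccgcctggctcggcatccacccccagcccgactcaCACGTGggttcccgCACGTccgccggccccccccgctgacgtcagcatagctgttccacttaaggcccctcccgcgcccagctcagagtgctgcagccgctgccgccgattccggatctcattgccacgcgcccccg
A match describes the letters of the window only. For the 6 BMP genes called higher, the letters GGCGCC, which read the same on both strands, were looked for in the same way and occurred in 1 gene, BMPER, against 19.2% of all windows.

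**Figure D3:**
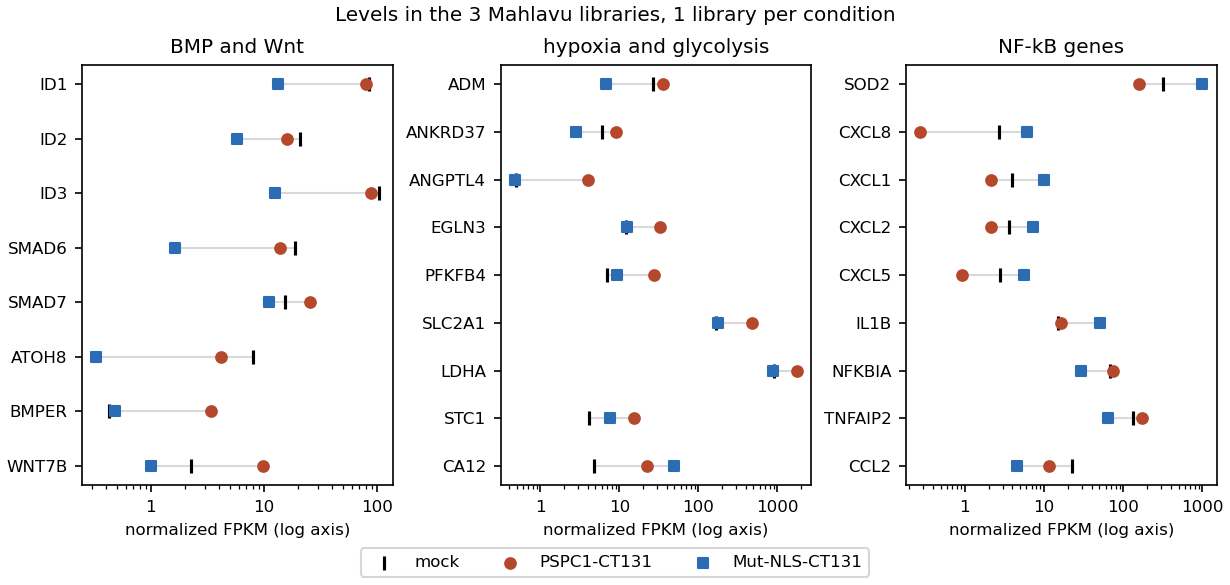
Normalized FPKM on a log axis of named BMP and Wnt genes (left), hypoxia and glycolysis genes (middle) and NF-kB genes (right) in mock (bar), the library labelled PSPC1-CT131 (circle) and the library labelled Mut-NLS-CT131 (square), 1 library each. ID1, ID2, ID3 and SMAD6 are low in the library labelled Mut-NLS-CT131, SLC2A1 and LDHA are high in the library labelled PSPC1-CT131, and SOD2 and the CXCL genes are highest in the library labelled Mut-NLS-CT131.

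NF-kB drives chemokine, cytokine and feedback inhibitor genes. Of 22 such genes 6 were called lower in the library labelled CT131 and 3 higher, again against 1.77% and 1.74%, so that the list held calls in both directions. Its median was −0.27 before and −0.42 after GC adjustment. Beside SOD2, the lower genes were chemokine genes for neutrophils and IL1B. CXCL8 had 93, 6 and 146 reads, CXCL1 had 3.94, 2.17 and 10.0 FPKM, and IL1B, an inflammatory cytokine gene, had 15.0, 16.5 and 50.3 FPKM. CXCL2 and CXCL5 had 2.18 against 7.34 FPKM and 0.933 against 5.59 FPKM in the libraries labelled CT131 and Mut-NLS. For the 4 chemokine genes CXCL8, CXCL1, CXCL2 and CXCL5, mock lay between the fragment libraries.

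The genes called higher were NFKBIA, which encodes the inhibitor IκBα, with 68.4, 75.1 and 29.7 FPKM, TNFAIP2 with 132, 175 and 64.0 FPKM, and the monocyte chemokine gene CCL2 with 22.6, 11.5 and 4.58 FPKM. IL6 had 8.72, 8.32 and 4.20 FPKM, a log2 difference of 0.84 before and 0.95 after GC adjustment. The leukemia inhibitory factor gene LIF and ZC3H12A, an RNase gene, were past 2-fold lower only after GC adjustment, at −1.05 and −1.24. The subunit genes NFKB1, NFKB2 and RELB had 0.29, −0.22 and −0.25, and the feedback gene TNFAIP3 −0.01, all after GC adjustment.

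Windows were read in the same way for the 8 NF-kB genes at least 2-fold lower after GC adjustment, of which 7 had one. The letters GGNNTTTCC, a common form of the NF-kB site, were found on either strand in CXCL1, CXCL2, CXCL5 and CXCL8, 4 of 7 genes, against 6.26% of all windows. These genes come from a list of NF-kB genes, whose other members were not read. The share of all windows is therefore no matched background, and the matches say nothing about why these genes differed. They were not found in the windows of SOD2, IL1B and ZC3H12A. The 4 windows are printed because these chemokine genes share the order of levels above, with the matches in capitals.
CXCL8, chr4:73740319-73740618, plus strand: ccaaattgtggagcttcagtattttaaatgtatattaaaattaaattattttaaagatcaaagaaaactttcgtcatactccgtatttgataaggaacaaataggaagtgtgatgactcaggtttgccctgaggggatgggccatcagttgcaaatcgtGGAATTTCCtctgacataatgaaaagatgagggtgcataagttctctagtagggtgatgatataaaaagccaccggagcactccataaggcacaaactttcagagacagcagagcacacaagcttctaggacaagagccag
CXCL1, chr4:73869143-73869442, plus strand: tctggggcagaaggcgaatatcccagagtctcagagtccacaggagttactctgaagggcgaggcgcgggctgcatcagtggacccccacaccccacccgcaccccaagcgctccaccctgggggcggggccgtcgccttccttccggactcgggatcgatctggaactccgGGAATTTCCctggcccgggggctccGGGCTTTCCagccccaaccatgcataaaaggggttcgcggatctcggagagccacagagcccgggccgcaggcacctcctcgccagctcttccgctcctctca
CXCL2, chr4:74099146-74099445, minus strand: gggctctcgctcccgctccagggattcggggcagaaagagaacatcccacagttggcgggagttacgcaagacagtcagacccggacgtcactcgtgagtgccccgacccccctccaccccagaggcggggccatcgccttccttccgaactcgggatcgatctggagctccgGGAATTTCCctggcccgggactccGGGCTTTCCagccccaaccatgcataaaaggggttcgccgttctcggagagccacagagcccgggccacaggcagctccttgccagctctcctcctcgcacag
CXCL5, chr4:73998628-73998927, minus strand: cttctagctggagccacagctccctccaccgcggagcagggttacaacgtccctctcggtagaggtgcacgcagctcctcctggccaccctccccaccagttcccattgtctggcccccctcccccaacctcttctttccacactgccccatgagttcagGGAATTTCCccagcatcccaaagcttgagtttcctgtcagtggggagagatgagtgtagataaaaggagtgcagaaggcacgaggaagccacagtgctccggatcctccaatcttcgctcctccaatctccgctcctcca
CXCL1 and CXCL2 each held 2 matches at nearly the same places, from base 173 and 198 and from base 174 and 198 of the window. These CXCL genes are related in sequence, so their windows are not independent.

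The partners of PSPC1 came next. SFPQ stood at 257 FPKM in mock, 218 in the library labelled CT131 and 116 in the library labelled Mut-NLS, a log2 difference of 0.90 before and 0.84 after GC adjustment, and NONO at 427, 387 and 297 FPKM, a difference of 0.38 before and 0.40 after GC adjustment. The RNA-binding protein genes EWSR1 and TAF15 had 84.3, 91.2 and 51.6 FPKM and 96.0, 92.0 and 44.3 FPKM. EWSR1 passed 2-fold after GC adjustment only and TAF15 before it only, and in both genes mock was close to the library labelled CT131. NEAT1, the scaffold RNA, had 42.7, 20.2 and 20.1 FPKM, so that both fragment libraries were alike and mock was higher. MALAT1, a nuclear long non-coding RNA encoded beside NEAT1, was called lower with 98.8, 37.2 and 130.1 FPKM. CPSF6, a cleavage factor gene, had 40.5, 35.6 and 25.7 FPKM, and NUDT21, its partner in that factor, 199, 101 and 211 FPKM. Over 26 genes of paraspeckles the median was 0.27 after GC adjustment, and MALAT1 was the one gene called lower.

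The kinase PTK6 had 6.37, 16.8 and 14.4 FPKM, a log2 difference of 0.22 before and −0.11 after GC adjustment. Among the 21 compared genes of its list, which hold PTK6 itself and known substrates, 0 were called either way, and the median was 0.03. The related kinase genes SRMS and FRK did not pass the filter. They had 17 against 8 and 13 against 19 reads in the libraries labelled CT131 and Mut-NLS. BCAR1, an adhesion scaffold gene, had 297, 327 and 156 FPKM and passed 2-fold before adjustment only, at 1.07 and 0.69. STAP2, an adaptor gene, had 19.7, 29.3 and 42.5 FPKM. In the genes of nuclear import and export, 33 in number, none was called and the median was 0.02. The transportin gene TNPO1 went from −1.25 to −0.69 on adjustment, and IPO9, an importin gene, had 0.77 and 0.81.

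**Figure D4:**
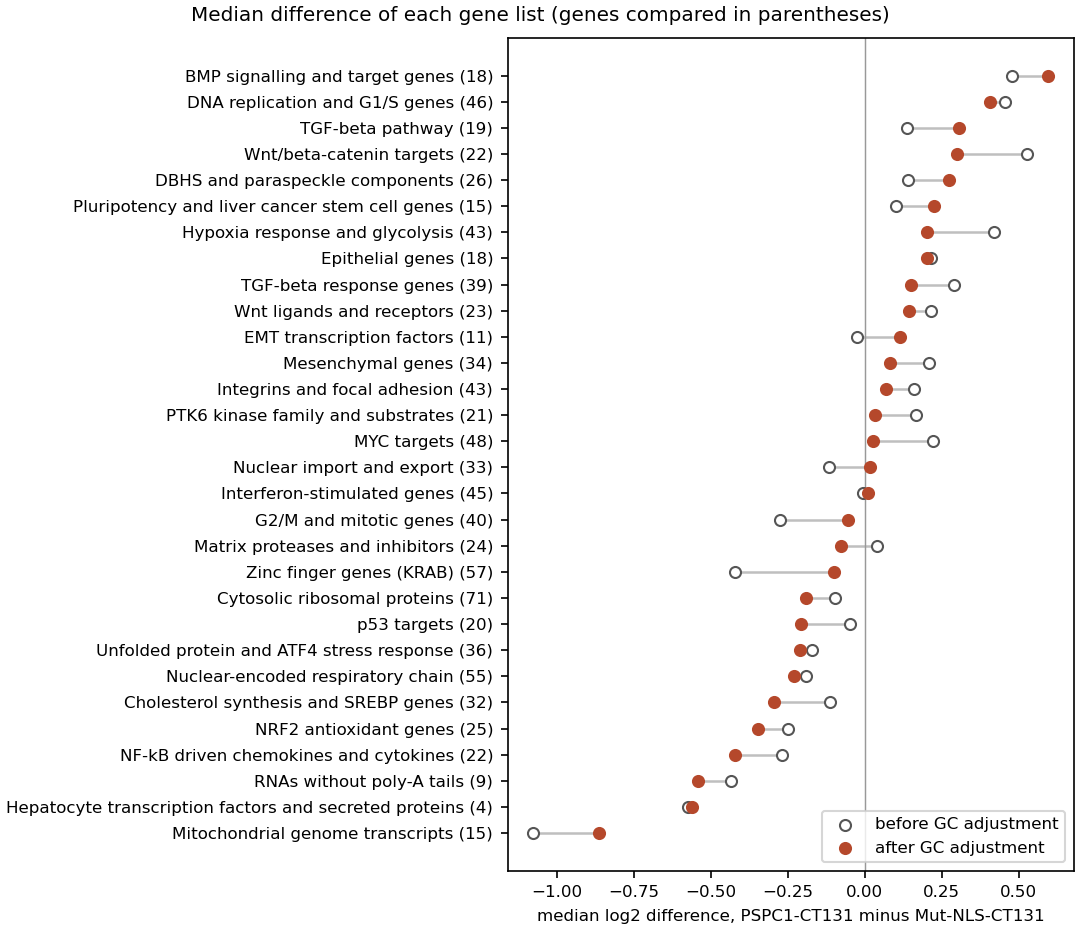
Median log2 difference, library labelled PSPC1-CT131 minus library labelled Mut-NLS-CT131, of each gene list (rows, number of genes compared in parentheses) before (open circles) and after (filled circles) GC adjustment. The mitochondrial genome transcripts lie lowest at −1.08 and −0.86, the KRAB zinc finger and G2/M genes move toward 0, and the DNA replication genes stay at 0.46 and 0.41.

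Most DNA replication and G1/S genes had small log2 differences above 0 that did not reach 2-fold. Of 46 genes 41 were above 0 after GC adjustment, with a median of 0.41, against −0.00 over all genes, but only 1 was called. This gene, UHRF1, a factor that keeps DNA methylation in place at replication, stood at 13.5 FPKM in mock, 12.2 in the library labelled CT131 and 3.24 in the library labelled Mut-NLS. GINS2, of the replicative helicase, had 44.8, 47.6 and 23.4 FPKM and CHAF1B, of the chromatin assembly factor, 15.3, 19.6 and 10.1 FPKM. In both, mock was nearer to the library labelled CT131. The helicase genes MCM2, MCM3, MCM4 and MCM5 had log2 differences of 0.45, 0.67, 0.62 and 0.47 after adjustment, and PCNA, the sliding clamp, 0.16. CCNE2 reached 1.00 after adjustment on 46 and 31 reads.

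Mitotic genes as a list differed less after GC content was taken into account than before. Of 40 G2/M genes 5 were at least 2-fold lower before adjustment and 1 after it, against 4.59% and 2.6% of all genes. The median of the list went from −0.28 to −0.06. The gene that stayed was CKS2, a subunit of cyclin-dependent kinases, with 279, 181 and 542 FPKM. CDK1, the mitotic kinase gene, with transcripts of 37.0% GC, went from −1.42 to −0.86. KRAB zinc finger genes, repressors whose transcripts are poor in GC, at a median of 40.5%, went from −0.42 to −0.10 over 57 genes with none called, and the sign of the adjusted median turned to 0.02 when 5 was added in place of 1. ZNF121 had −1.12 and −0.73. Most of the median difference of both lists was thus gone after adjustment. The adjustment raises genes poor in GC by construction, and where that difference came from was not tested.

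Transcripts of the mitochondrial genome were lower in the library labelled CT131. Of 15 transcripts 14 were below 0 after GC adjustment and 6 were called lower, against 1.77% of all genes, with a median of −1.08 before and −0.86 after. MT-CO3, a subunit of cytochrome c oxidase, stood at 3459.7 FPKM in mock, 759 in the library labelled CT131 and 3301 in the library labelled Mut-NLS. MT-ND3 had 1786, 581 and 2185 FPKM, MT-ND2 568, 304 and 784 FPKM and MT-ATP6 1318, 380.2 and 1071 FPKM. Mock and the library labelled Mut-NLS were close for MT-CO3 and not for MT-ND2. MT-CO1, the most abundant, had 5864, 3459.7 and 4949.8 FPKM and MT-ND1 1001, 507 and 589.6 FPKM, neither past 2-fold between the fragment libraries. The ribosomal RNA genes MT-RNR1 and MT-RNR2 had 14.7 against 13.0 FPKM and 69.9 against 148 FPKM there. In all, 0.820% of reads (95% Wilson interval 0.816 to 0.824) were on mitochondrial genes in the library labelled CT131, 1.51% (1.505 to 1.516) in the library labelled Mut-NLS and 1.54% (1.535 to 1.545) in mock.

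The nuclear-encoded subunits of the respiratory chain went from 8 genes past 2-fold lower to 1 of 55 on adjustment, against 4.59% and 2.6% of all genes. The medians were −0.19 and −0.23. That gene was COX7B, with 98.3, 34.1 and 102 FPKM. NDUFB3 had 81.8, 32.1 and 71.9 FPKM. Cytosolic ribosomal protein genes had a median of −0.19 over 71 genes after adjustment, which turned to 0.03 on FPKM as deposited and on scaled read counts, and RPL31, with 434, 184 and 386 FPKM, was the one called lower.

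Cholesterol is made from acetyl-CoA by enzymes whose genes the SREBP factors switch on together. Of 32 genes 4 were called lower in the library labelled CT131 and 1 higher, against 1.77% and 1.74% of all genes. The median was −0.11 before adjustment, where it turned to 0.02 with median-of-ratios size factors, and −0.29 after it, with 27 genes below 0. IDI1, an isomerase gene of the pathway, stood at 136 FPKM in mock, 58.5 in the library labelled CT131 and 198 in the library labelled Mut-NLS. HMGCS1, which makes HMG-CoA, had 123, 49.4 and 156 FPKM, MSMO1, a sterol oxidase gene, 158, 95.3 and 314 FPKM, and STARD4, a sterol carrier gene, 41.8, 25.9 and 92.7 FPKM. SREBF1, which encodes one of the SREBP factors, was the gene called higher, with 387, 784 and 277 FPKM, while SREBF2 had 137, 152 and 164 FPKM. The fatty acid synthase gene FASN had 609, 1357 and 1401 FPKM, nearly alike between the fragment libraries.

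Genes of the unfolded protein and ATF4 responses include chaperones of the endoplasmic reticulum. Of 36 genes 4 were called lower and 0 higher, against 1.77% and 1.74% of all genes, with a median of −0.21 after adjustment. MANF, a secreted stress protein gene, stood at 98.9 FPKM in mock, 105 in the library labelled CT131 and 291 in the library labelled Mut-NLS, a log2 difference of −1.47 before and −1.67 after GC adjustment. The transcription factor gene DDIT3 had 11.4, 15.6 and 39.0 FPKM, the cochaperone gene DNAJB9 11.5, 7.56 and 28.8 FPKM and HSP90B1, the chaperone GRP94, 516, 320.1 and 840.4 FPKM. For MANF and DDIT3, mock and the library labelled CT131 were nearer to each other, so that the high value was that of the library labelled Mut-NLS. Other members of this list went the other way. ATF5, DDIT4 and CHAC1, the last of which encodes a glutathione-degrading enzyme, were past 2-fold higher before adjustment, at 1.06, 1.07 and 1.25, and had 0.70, 0.73 and 0.88 after it.

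**Figure D5:**
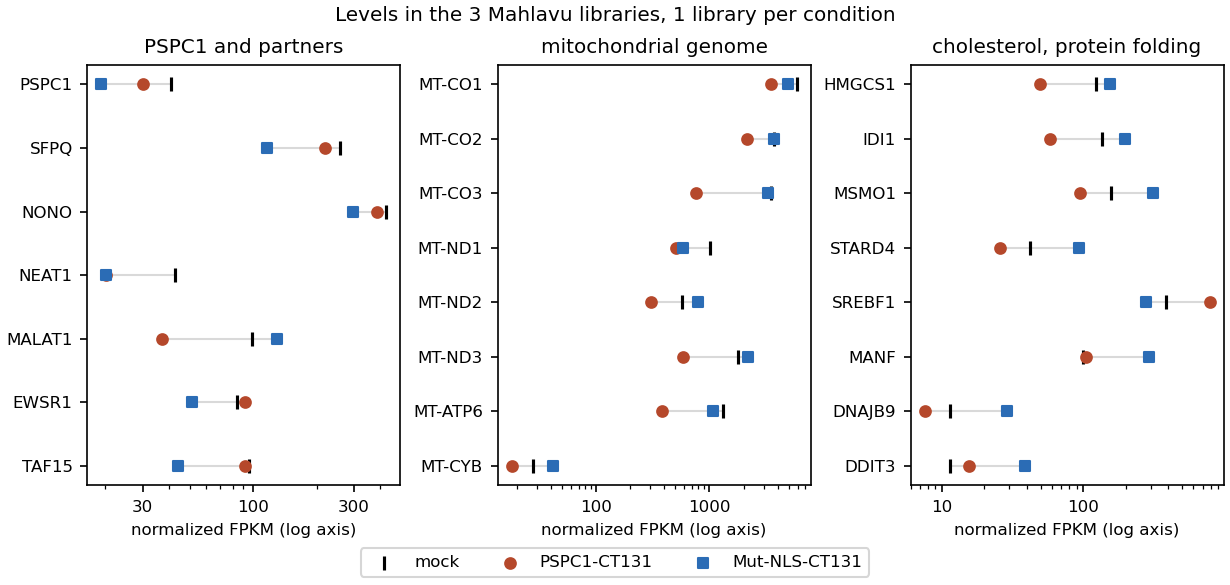
Normalized FPKM on a log axis of PSPC1 and its partners (left), mitochondrial genome transcripts (middle) and genes of cholesterol synthesis and protein folding (right) in mock (bar), the library labelled PSPC1-CT131 (circle) and the library labelled Mut-NLS-CT131 (square), 1 library each. NEAT1 is alike in both fragment libraries, MT-CO3 is low in the library labelled PSPC1-CT131, and SREBF1 runs opposite to HMGCS1, IDI1, MSMO1 and STARD4.

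The 25 NRF2 antioxidant genes had a median of −0.35 after adjustment, with 1 higher and 1 lower, against 1.74% and 1.77% of all genes. These were the transporter gene ABCC3 (113 against 40.1 FPKM in the libraries labelled CT131 and Mut-NLS) and the thioredoxin gene TXN (274 against 729 FPKM). The median shrank to −0.06 on scaled read counts. Among 20 p53 targets none was called, and the median was −0.21. GADD45A had 141, 149 and 296 FPKM and was past 2-fold after adjustment only.

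Epithelial and mesenchymal genes bear on the epithelial-mesenchymal transition that the study followed. Of 35 epithelial genes 18 passed the filter and 3 of these were called higher, against 1.74% of all genes, and none lower. These were the keratin genes KRT7, KRT8 and KRT18. KRT8 stood at 1572 FPKM in mock, 1476 in the library labelled CT131 and 535 in the library labelled Mut-NLS, and its partner KRT18 at 275, 266 and 97.1 FPKM, so that mock and the library labelled CT131 were alike. KRT7 had 60, 75 and 15 reads. Another 8 of the 18 were below 0 after adjustment, among them the claudin gene CLDN4 at −0.70 and DSP, which encodes the desmosome protein desmoplakin, at −0.55. The median of the list was 0.22 before adjustment, where it turned to −0.05 on FPKM as deposited, and 0.20 after it. CDH1, which encodes E-cadherin, had 17, 21 and 17 reads and did not pass the filter. CDH2, which encodes N-cadherin, had 21.6, 26.7 and 17.8 FPKM, a log2 difference of 0.56 before and 0.63 after GC adjustment. The mesenchymal gene VIM had 295, 545 and 436 FPKM and FN1 59.7, 61.6 and 58.0 FPKM. Of 34 mesenchymal genes 1 was called higher and none lower, against 1.74% and 1.77% of all genes, and the median was 0.08. The called gene was the proteoglycan gene BGN with 14.1, 19.1 and 6.21 FPKM. TAGLN and MYL9, a myosin light chain gene, passed 2-fold lower after adjustment only, at −1.07 and −1.05. MYL9 had 397, 212 and 342 FPKM. ACTA2, the smooth muscle actin gene, and TPM2, a tropomyosin gene, had −0.92 and −0.90 after adjustment, and mock was above both fragment libraries in all 4 of these genes.

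EMT transcription factors had a median of 0.11 over 11 genes with none called, and it turned to −0.31 among genes of at least 5 FPKM. SNAI1 had 5.92, 12.3 and 14.3 FPKM, SNAI2 4.09, 5.94 and 4.53 FPKM and TWIST1 78.7, 77.1 and 98.9 FPKM. TWIST2 had 9.12, 20.2 and 8.93 FPKM and 0.79 after adjustment. The stemness list had 15 genes above the filter and a median of 0.23, and 1 was called higher, against 1.74% of all genes. This was the aminopeptidase gene ANPEP (CD13) with 46.9, 192 and 52.8 FPKM. NANOG and SOX2 had no read in either fragment library. POU5F1 had 26, 21 and 7 reads and did not pass the filter.

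Integrin and focal adhesion genes had a median of 0.07 over 43 genes, and 1 was called higher, against 1.74% of all genes. This was the collagen receptor gene ITGA11 with 6.51, 19.9 and 6.12 FPKM. ITGA2 had 3.24, 10.1 and 5.13 FPKM and passed 2-fold after adjustment only. Of 24 matrix proteases and inhibitors 2 were called higher, against 1.74% of all genes, TIMP3 and the plasminogen activator inhibitor gene SERPINB2, which had 72, 75 and 18 reads. The median of this list was −0.08, and the membrane protease gene MMP14 had 57.8, 71.6 and 104 FPKM. The 45 interferon-stimulated genes held no call, with a median of 0.01, and IFIT2 had 3.60, 3.35 and 7.63 FPKM. In the list of hepatocyte genes 4 of 34 passed the filter, and APOE was the one call. In the list named RNAs without poly-A tails 9 of 24 passed and none was called. Its histone gene HIST1H2BC had 5.32, 1.51 and 3.96 FPKM, and whether its transcripts carry a tail was not examined.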

How the data were processed

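RNA-Seq of 3 Mahlavu libraries was used: mock, PSPC1-CT131 and Mut-NLS-CT131. The authors deposited read counts per gene, not normalized, and FPKM computed from these counts. Per the submitters' processing notes, TopHat2 2.0, HTSeq 0.6.1, edgeR and GRCh38.p12 were used. The labels describe poly-T selection and the paper's methods rRNA depletion. The library kit does not mark strand, so antisense partners cannot be told apart. The 8 lines naming no gene were left out. Genes were matched to GENCODE 29 symbols, and for 97.6% of shared genes the positions were the same.

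The deposited FPKM were quantile normalized over the 8 SK-hep1 and Mahlavu libraries, the study's stated step, and 1 was added before log2. Genes that averaged at least 1 FPKM over both fragment libraries were compared. GC adjustment subtracted the median difference of 20 equal bins of transcript GC content, joined linearly. Its code was run on simulated counts with a GC trend put in. These had counting error only, so that run does not show how well the adjustment worked in these libraries. No p-value was computed, since each condition had 1 library. Counting intervals are exact Clopper-Pearson at 95%, and Wilson for shares of mitochondrial reads. The members and lists were chosen with earlier results of these data known. Named genes were 21 fixed genes, the 12 highest and 12 lowest protein-coding genes by adjusted difference with at least 100 reads and past 2-fold before and after, and up to 4 genes per list with the largest adjusted difference. Other named genes were chosen after their values were seen. Python 3.11.15, pandas 2.3.3, scipy 1.17.1 and edgeR 4.0.16 (TMM factors only) were used. A few genes of the lists are not reported here by name.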

Additional observations from a re-analysis of the deposited data

How the results depend on the processing

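Adding 0.1 in place of 1 to each FPKM gave 837 genes at least 2-fold higher and 878 lower in the library labelled PSPC1-CT131, and 558 and 493 after GC adjustment. Adding 5 gave 165 and 244, and 79 and 146 after adjustment. FPKM as deposited gave 302 and 966 before adjustment. TMM-scaled read counts gave 967 lower before, and 457 higher and 515 lower after adjustment. Median-of-ratios size factors gave 918 lower before, and 457 and 515 after. With no filter on low FPKM, where unexpressed genes set the bin medians near 0, 562 and 620 genes were past 2-fold after adjustment. Genes of at least 5 FPKM gave 184 and 208 after adjustment. The other 20 counts stayed within 1.5 times, among them those of a quadratic fit on GC content and length (292 and 300) and of merged exons (260 and 324).

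None of the 436 genes called changed sign under the 11 alternatives, among those that kept a value. This adds no support, since the genes were chosen as past 2-fold and every alternative used the same libraries. Between 176 and 436 of them stayed past 2-fold before and after adjustment, the fewest with 5 added. With no filter the adjusted medians of the NF-kB and BMP genes were −0.08 and 0.20. On scaled read counts the KRAB zinc finger median was −0.68 before adjustment. The medians of the hepatocyte genes and of RNAs without poly-A tails both turned to 0.000295 before adjustment with no filter. No paired analysis was possible because each condition had 1 library, and none could be left out. Without replicates, the spread between cultures is unknown.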

Other observations

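Non-coding genes were also compared, and these were looked at after the protein-coding genes. Of 389 lincRNA genes 18 were higher and 21 lower by 2-fold or more in the library labelled PSPC1-CT131 before and after GC adjustment, and of 344 antisense genes 13 and 9, against 168 and 161 of 11129 protein-coding genes and 1.74% and 1.77% of all genes. Of 56 miRNA genes 8 were higher and 7 lower. No minimum of reads was set for the counts by gene type, so genes with few reads can be among those counted. LINC02582 had 21 reads in mock, 288 in the library labelled PSPC1-CT131 and 66 in that labelled Mut-NLS-CT131, with an adjusted log2 difference of 2.47. Reads of antisense genes cannot be told apart from those of the gene on the other strand.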
